A study of Homo sapiens with 42 samples.

Results

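The mitochondrial ATP synthase, or complex V, is the rotary enzyme that makes most of the ATP of oxidative phosphorylation. Protons crossing the inner membrane turn a ring of identical c subunits, the ring turns a central stalk, and the stalk drives the catalytic head on the matrix side. The 10 genes described here encode the head (ATP5F1A and ATP5F1B, the alpha and catalytic beta subunits), the central stalk (ATP5F1C, ATP5F1D and ATP5F1E, the gamma, delta and epsilon subunits), the peripheral stalk that holds the head still (ATP5PB and ATP5PO), and the c-ring (ATP5MC1, ATP5MC2 and ATP5MC3). The 3 c-ring genes are paralogs that differ in their import sequences and encode the same mature c subunit, whereas each other subunit here has 1 gene. The genes were taken by name from a count table of 57353 gene names, and all 10 were found and were among the 12939 genes tested. The set was chosen by the known input changes of ATP5MC1 under quizartinib, between the media under quizartinib and with everolimus added to quizartinib in hBMSC-CM. Those changes, and the difference between media in the quizartinib response, are therefore given below as values without a test, and the counts of genes called in those comparisons leave ATP5MC1 out.

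The study asked how conditioned medium of bone marrow stromal cells alters the response of leukemia cells to FLT3 inhibition, in total RNA and in RNA engaged by several ribosomes at once. MOLM-13, a line of acute myeloid leukemia with an internal tandem duplication (ITD) in its FLT3 receptor kinase gene, was grown in RPMI or in hBMSC-CM, a mix of RPMI with medium conditioned by HS-5 stromal cells. In each medium cells were given vehicle, 3 nM quizartinib (a FLT3 inhibitor, also AC220) or quizartinib with 10 nM everolimus (an mTORC1 inhibitor), called combo, for 12 hours, and in hBMSC-CM also 10 nM everolimus alone. RPMI with everolimus alone was not analysed here. Poly(A) RNA was sequenced from the lysate (input) and from the heavy polysome fraction of a sucrose gradient, with 3 libraries for each of the 7 conditions and 2 fractions, 42 in all. All 7 conditions share 1 cell line, cultured without stromal cells present. The labels give the replicates only as numbers 1 to 3, and the study describes its replicates as biological. The p-values measure the spread between these libraries of 1 cell line.

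Input libraries held 19.4 to 37.2 M counts and polysome libraries 21.5 to 38.8 M. The 10 genes took 0.229 to 0.351% of input counts and 0.308 to 0.555% of polysome counts. The lowest input count of ATP5MC1 was 442. All 9 myeloid leukemia markers averaged 1 CPM (counts scaled to the library total, after TMM scaling) or more, with a sum of 1674 to 2504 CPM in input. Of 10 stromal markers, COL3A1, LUM and THY1 were at 0 in every input library and only COL1A1 and TAGLN averaged 1 CPM or more. The summed stromal list moved with quizartinib in both media: it was 2.44 to 6.65 CPM in RPMI vehicle and 13.1 to 39.7 CPM in RPMI quizartinib, and 2.62 to 7.03 CPM in hBMSC-CM vehicle and 10.6 to 24.9 CPM in hBMSC-CM quizartinib. COL1A1 was at 0.151 to 2.35 CPM in RPMI vehicle and 8.29 to 32.9 CPM in RPMI quizartinib, and its part in the results below was not tested. The input library of hBMSC-CM vehicle replicate 3 stood apart for several of the genes, for example ATP5F1D at 454 CPM against 222 and 233 CPM in the other two. For several of the values below, the value without its culture is also given. Those fits kept the libraries numbered 3 of the other conditions, so the groups compared then differ in their replicate numbers. Outside everolimus, the input level of ATP5MC2 was highest in the library numbered 3 of each condition.

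The 3 c-ring paralogs lie on different chromosomes. In GRCh38 with the GENCODE 44 annotation, ATP5MC1 (ENSG00000159199) is at chr17:48892765-48895871 on the plus strand, ATP5MC2 (ENSG00000135390) at chr12:53632726-53677408 on the minus strand and ATP5MC3 (ENSG00000154518) at chr2:175176258-175181710 on the minus strand. Each has 5 exons in its reference transcript. Their coding sequences run to 136, 141 and 142 codons, and the last 77 codons, which hold the mature c subunit, encode the same residues in all 3. The letters of that stretch, the exonic end of each coding sequence with its stop codon, are printed 5′ to 3′ to show how the counts of the 3 genes can be told apart. Capitals mark the bases that are not the same in all 3.

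ATP5MC1: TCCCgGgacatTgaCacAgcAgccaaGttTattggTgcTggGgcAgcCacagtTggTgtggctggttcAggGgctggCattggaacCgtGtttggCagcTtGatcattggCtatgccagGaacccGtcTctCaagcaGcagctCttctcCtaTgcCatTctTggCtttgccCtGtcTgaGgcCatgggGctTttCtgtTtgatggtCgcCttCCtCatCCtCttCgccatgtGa
ATP5MC2: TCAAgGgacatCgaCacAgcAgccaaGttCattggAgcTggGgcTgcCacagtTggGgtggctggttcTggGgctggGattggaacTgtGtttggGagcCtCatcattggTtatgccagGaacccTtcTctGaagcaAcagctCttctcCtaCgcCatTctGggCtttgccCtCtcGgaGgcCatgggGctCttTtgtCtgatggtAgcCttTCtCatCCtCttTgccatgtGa
ATP5MC3: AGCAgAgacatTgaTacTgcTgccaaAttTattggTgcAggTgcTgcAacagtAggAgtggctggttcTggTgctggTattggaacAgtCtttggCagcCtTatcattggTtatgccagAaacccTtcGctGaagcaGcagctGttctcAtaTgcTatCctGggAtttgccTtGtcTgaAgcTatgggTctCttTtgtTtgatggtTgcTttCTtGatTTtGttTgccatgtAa

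Of the 234 bases, 58 varied between the paralogs and 176 did not. ATP5MC1 and ATP5MC2 differed at 27 of them, 24 in the last base of a codon, and were 88.5% identical. ATP5MC1 and ATP5MC3 differed at 47 and were 79.9% identical, as were ATP5MC2 and ATP5MC3. Over the whole reference transcripts the longest run of identical bases was 17 between ATP5MC1 and ATP5MC2, 11 between ATP5MC1 and ATP5MC3 and 17 between ATP5MC2 and ATP5MC3, all below the 50 bases to which reads could be trimmed. Processed pseudogenes named after ATP5MC1, 7 in the table, held at most 15 counts in any library, 0.588% of the count of ATP5MC1. The other members lie at chr18:46080248-46104334 (ATP5F1A), chr12:56638175-56645984 (ATP5F1B), chr10:7788147-7807815 (ATP5F1C), chr19:1241746-1244825 (ATP5F1D), chr20:59025475-59032345 (ATP5F1E), chr1:111448864-111462773 (ATP5PB) and chr21:33903453-33915814 (ATP5PO). Exons of ATP5PB overlap WDR77 over 90 bases and those of ATP5PO overlap LINC00649 over 246 bases, both on the opposite strand. The neighbour held up to 44% of the member's count in each case, and the use of strand in counting is not given in the sources used here. ATP5PO also shares 61.2% of its 50-base windows with the readthrough gene AP000311.1, so its level is uncertain.

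In RPMI vehicle, ATP5MC2 was the most abundant of the c-ring messages per length of transcript. Its input level was 695 ± 112 CPM per kb of transcript (SD, n = 3), against 195 ± 17.3 for ATP5MC1 and 96.6 ± 17.4 for ATP5MC3. Per kb of coding sequence ATP5MC2 was again the highest of the 3, at 1031 ± 166, and ATP5MC3 (582 ± 105) then came above ATP5MC1 (306 ± 27.2). The change of order between ATP5MC1 and ATP5MC3 follows from the reference transcript of ATP5MC3, which is 2587 bases long against 646 for ATP5MC1. Among all 10 genes the level per kb of coding sequence ran from 73.3 for ATP5PO, 181 for ATP5F1C, 306 for ATP5MC1, 365 for ATP5PB, 416 for ATP5F1A, 420 for ATP5F1B, 500 for ATP5F1D and 582 for ATP5MC3 to 1031 for ATP5MC2 and 1097 for ATP5F1E. The values of neighbours overlapped between libraries from ATP5MC1 upward, except between ATP5MC3 and ATP5MC2, and not below it. Per kb of transcript the range was 47.4 for ATP5F1E to 695 for ATP5MC2.

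The c-ring paralogs had unlike values under quizartinib, with ATP5MC1 far below its vehicle level, ATP5MC3 below it by less and ATP5MC2 near it. In RPMI the input level of ATP5MC1 was 113, 131 and 133 CPM under vehicle and 24.1, 22.2 and 21.7 CPM under quizartinib. The lowest vehicle library was thus far above the highest treated one, and the fitted log2 change was −2.47 ± 0.33 (SE), 5.54-fold lower. ATP5MC3 stood at 299, 241 and 210.1 CPM under vehicle and 129.7, 109 and 91.0 CPM under quizartinib. The groups of ATP5MC3 did not overlap, and it fell by 1.19 ± 0.27 on the log2 scale (edgeR quasi-likelihood test, adjusted p = 0.000835). ATP5MC2 was at 407, 391 and 520.5 CPM under vehicle and 435, 359.9 and 545 CPM under quizartinib. Its libraries interleaved, with a log2 difference of 0.02 (95% interval −0.48 to 0.53).

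None of the other 7 subunits was called in RPMI, and their log2 values for quizartinib against vehicle ran from −0.71 to 0.07. The largest was that of ATP5F1B, at 769, 634 and 603 CPM under vehicle and 516, 429 and 279 CPM under quizartinib (−0.71 ± 0.39, adjusted p = 0.161). Its groups did not overlap, and neither did those of ATP5F1A (−0.45), ATP5F1D (−0.33) and ATP5PB (−0.38). With ATP5MC3 that made 5 of the 9 genes other than ATP5MC1 without overlap, where 55.7% of all genes tested had none. Of those 9, ATP5MC3 was the 1 called, where 34.6% of all genes were called and 18% were called lower. The median log2 change was −0.35 over the 10 genes and 0.08 over all genes. ATP5MC1 lay 2.15 below the median of the 7 subunits outside the c-ring. With the replicate number as a block in the edgeR fit, ATP5F1A (adjusted p = 0.00473) and ATP5F1B (adjusted p = 0.00702) were also called lower. In that fit 42.3% of all genes were called.

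**Figure D1:**
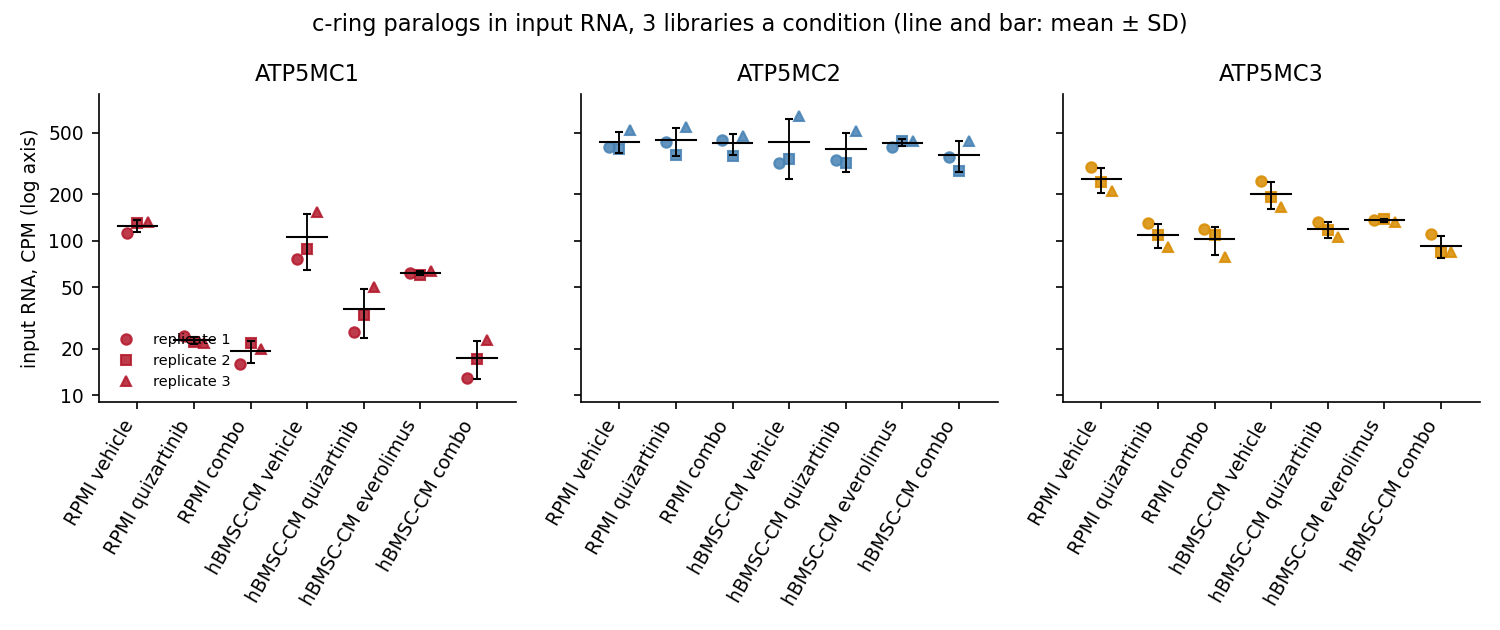
Input level (CPM, log axis) of ATP5MC1, ATP5MC2 and ATP5MC3 in the 7 conditions. Points are the 3 libraries of a condition, the line and bar their mean and SD. ATP5MC1 lies at 113 to 133 CPM in RPMI vehicle and 21.7 to 24.1 CPM in RPMI quizartinib, ATP5MC3 is lower by less, and the points of ATP5MC2 interleave.

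In hBMSC-CM the 3 paralogs kept the same order, with log2 values for ATP5MC1 and ATP5MC3 nearer to 0. ATP5MC1 was at 76.3, 88.6 and 155 CPM under vehicle and at 25.6, 33.1 and 50.4 CPM under quizartinib. The groups did not overlap, the fitted log2 change was −1.55 ± 0.32 (2.93-fold lower), and without the culture of hBMSC-CM vehicle replicate 3 it was −1.19. ATP5MC3 was at 243, 192 and 166 CPM under vehicle and 133, 117 and 105 CPM under quizartinib. Its groups did not overlap, but its difference of −0.75 ± 0.27 missed the threshold (adjusted p = 0.0621). ATP5MC2 was at 319, 340.3 and 645 CPM under vehicle and 336, 318 and 518 CPM under quizartinib, a log2 difference of −0.15 (95% interval −0.66 to 0.35). Without the culture of vehicle replicate 3 the difference of ATP5MC2 turned to 0.24. That fit kept quizartinib replicate 3, the highest of its group at 518 CPM.

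The other 7 subunits had log2 values of −0.63 to −0.21 in hBMSC-CM, and none was called. The largest of these differences, that of ATP5F1D, came from 233, 222 and 454 CPM under vehicle against 182, 151 and 256 CPM under quizartinib (−0.63 ± 0.24, adjusted p = 0.0743). It was −0.22 without the culture of vehicle replicate 3, and those of ATP5F1E (−0.30) and ATP5PO (−0.62) became 0.20 and −0.19. Quizartinib replicate 3 stayed in that fit, and ATP5F1D was lower under quizartinib in each pair of libraries with the same number. Of the 9 genes other than ATP5MC1, none was called, where 12.3% of all genes were. An unadjusted p under 0.05 was found for 3 of those 9, where 26.6% of all genes had one. Of the same 9, limma voom and DESeq2 called 0. ATP5MC3 was the 1 of those 9 without overlap, where 34.1% of all genes had none. The median was −0.35 over the 10 genes and 0.01 over all genes, and ATP5MC1 lay 1.25 below the median of the other 7. With the replicate number as a block in the edgeR fit, ATP5MC3 (adjusted p = 0.015) and ATP5F1D (adjusted p = 0.0363) were called lower. In that fit 20.7% of all genes were called.

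The response of ATP5MC1 to quizartinib was 0.92 ± 0.45 smaller in hBMSC-CM than in RPMI on the log2 scale. The difference was 1.28 without hBMSC-CM vehicle replicate 3 and 0.61 without hBMSC-CM quizartinib replicate 3. ATP5MC3 had the same sign at 0.43 ± 0.38, with an interval of −0.32 to 1.18 that spans 0, and ATP5MC2 had −0.18 ± 0.37. The 7 subunits outside the c-ring ran from −0.44 to 0.30. Without hBMSC-CM vehicle replicate 3, ATP5MC2 turned from −0.18 to 0.21, ATP5F1D from −0.30 to 0.10, ATP5F1E from −0.37 to 0.12 and ATP5F1C from −0.01 to 0.08, and ATP5PO went from −0.44 to −0.02. Of the 9 genes other than ATP5MC1, none was called by the test of this difference between media, where 1.96% of all genes were (0 had an unadjusted p under 0.05, and limma voom and DESeq2 called 0).

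Under vehicle none of these genes was called between the media. ATP5MC1 had a log2 value of −0.24 and ATP5MC3 of −0.32 in hBMSC-CM relative to RPMI, and the 10 ran from −0.32 to 0.27. Without hBMSC-CM vehicle replicate 3 all 10 were negative, with ATP5MC1 at −0.59, and with ATP5F1D turning from 0.26 to −0.13, ATP5F1E from 0.26 to −0.22 and ATP5PO from 0.27 to −0.14. ATP5MC1 was at −0.05 without hBMSC-CM vehicle replicate 1 and at −0.12 without replicate 2. All 10 overlapped between the media, where 16.1% of all genes did not. None was called, where 1.51% of all genes were, and none had an unadjusted p under 0.05 or was called by limma voom or DESeq2. Under quizartinib the 9 genes other than ATP5MC1 all overlapped between media, where 29.8% of all genes did not. The level of ATP5MC1 was 21.7 to 24.1 CPM in RPMI quizartinib and 25.6 to 50.4 CPM in hBMSC-CM quizartinib. Its log2 difference was 0.68 ± 0.32, or 0.37 without hBMSC-CM quizartinib replicate 3. ATP5MC3 had 0.11 and the other 8 had −0.19 to −0.01. Of the 9 genes other than ATP5MC1, again none was called, where 8.16% of all genes were (0 had an unadjusted p under 0.05, and 0 were called by limma voom or DESeq2).

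With everolimus added to quizartinib, the level of ATP5MC1 in hBMSC-CM was lower still. It was 25.6, 33.1 and 50.4 CPM under quizartinib and 12.9, 17.1 and 22.7 CPM under combo, without overlap and with a log2 difference of −1.05 ± 0.32. ATP5MC3 followed with −0.35, from 105 to 133 CPM under quizartinib to 84.2 to 110.4 CPM under combo, with overlap. The other 8 ran from −0.17 to 0.03. The 9 genes other than ATP5MC1 all overlapped, where 14.7% of all genes did not, and 0 of them were called by edgeR, where 0.24% of all genes were (0 had an unadjusted p under 0.05, and limma voom and DESeq2 called 0). In RPMI, where ATP5MC1 was already at 21.7 to 24.1 CPM with quizartinib, combo gave 16.0, 21.9 and 20.1 CPM and a log2 difference of −0.23 ± 0.32. The 10 genes ran from −0.23 to 0.11 there, all with overlap where 7.57% of all genes had none, none was called or had an unadjusted p under 0.05, limma voom and DESeq2 called 0, and 0.00773% of all genes were called.

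Everolimus alone in hBMSC-CM gave smaller differences from vehicle. ATP5MC1 was at 62.2, 60.3 and 64.2 CPM, below the 76.3, 88.6 and 155 CPM of vehicle (log2 difference −0.78 ± 0.32, adjusted p = 0.413). ATP5MC3 was at 137, 139 and 133 CPM, below the 243, 192 and 166 CPM of vehicle (−0.55 ± 0.27, adjusted p = 0.569). ATP5MC2, at 407, 447 and 444 CPM, lay between its vehicle libraries, with −0.01. The 10 log2 values ran from −0.78 to −0.01, with that of ATP5MC2 at 0.05 when libraries were scaled by size only. Without vehicle replicate 3 that of ATP5MC2 was 0.41, those of ATP5F1D, ATP5F1E and ATP5PO were 0.09, 0.17 and 0.09, and that of ATP5MC1 was −0.39. No gene of the 10 was called, where 0.41% of all genes were. An unadjusted p under 0.05 was found for 2 of the 10, where 8.69% of all genes had one. Of the same 10, limma voom and DESeq2 called 0. The 4 without overlap, where 27.7% of all genes had none, were ATP5MC1, ATP5MC3, ATP5F1A and ATP5PB. Mitochondrially encoded genes took 7.05, 3.19 and 3.17% of counts in the vehicle libraries and 3.67, 4.08 and 4.25% in the everolimus libraries. The drug and a difference between these sets of libraries cannot be told apart here.

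**Figure D2:**
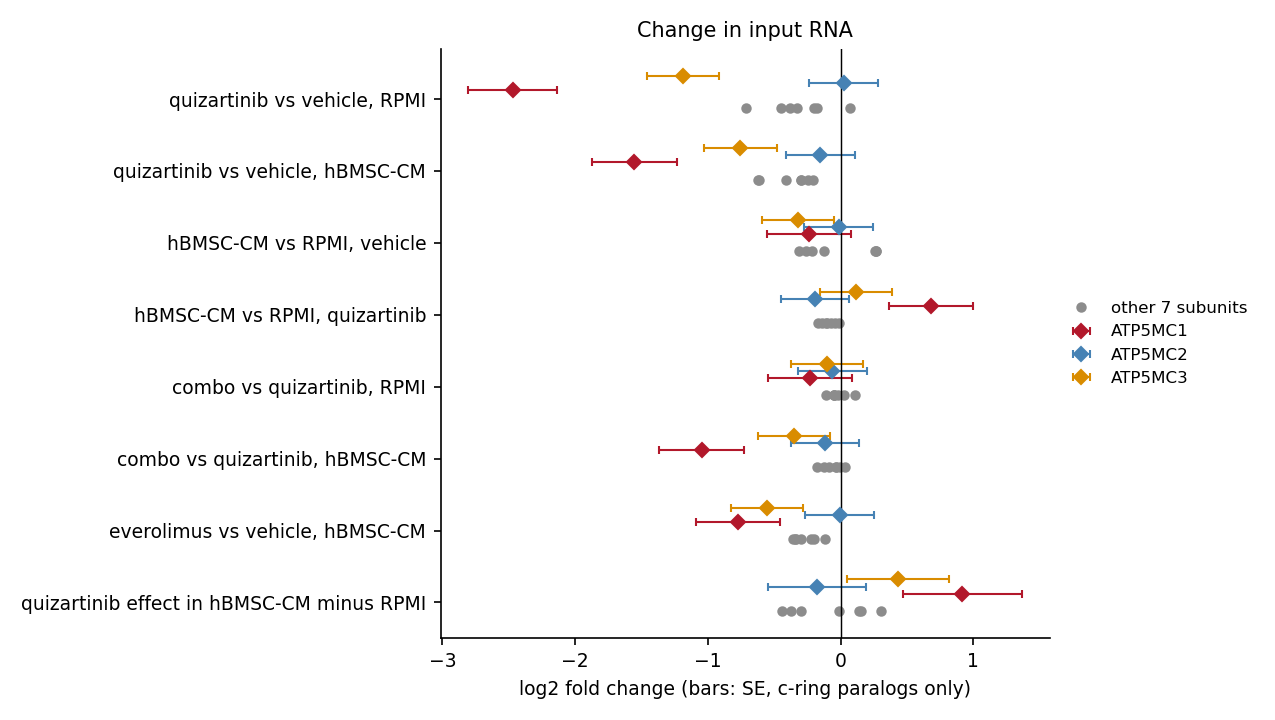
Fitted log2 changes in input RNA for the 10 genes in each comparison, with the SE drawn for the c-ring paralogs. ATP5MC1 is at −2.47 and −1.55 for quizartinib against vehicle in RPMI and hBMSC-CM, while the 7 subunits outside the c-ring stay between −0.71 and 0.07 and between −0.63 and −0.21.

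The make-up of the c-ring messages differed accordingly. Scaled by transcript length, ATP5MC1 gave 19.8 ± 2.06% of the c-ring messages of RPMI vehicle input (SD, n = 3) and 4.58 ± 0.877% under quizartinib. In hBMSC-CM it gave 17.6 ± 1.00% under vehicle, 11.6 ± 0.605% under everolimus, 7.74 ± 1.19% under quizartinib and 4.34 ± 1.01% under combo. ATP5MC2 had a larger share under quizartinib at a level close to that of vehicle, with 70.2 ± 3.45% and 89.8 ± 2.41% in RPMI vehicle and quizartinib and 73.1 ± 3.50% and 85.5 ± 1.73% in hBMSC-CM. The shares of vehicle and quizartinib did not overlap in either medium. Scaled by coding length the same shares of ATP5MC1 were 16.0 ± 1.74% and 4.12 ± 0.642% in RPMI and 14.6 ± 2.10% and 6.80 ± 1.26% in hBMSC-CM. The share of ATP5MC3 depended more on the scaling, being 9.95 ± 2.54% by transcript length and 30.5 ± 6.09% by coding length in RPMI vehicle. Summed over the 3 paralogs without scaling, c-ring messages were at 815 ± 50.7 CPM in RPMI vehicle, 579 ± 83.9 CPM in RPMI quizartinib, 741 ± 194 CPM in hBMSC-CM vehicle and 546 ± 112 CPM in hBMSC-CM quizartinib. These are shares of messages in bulk samples. All levels given here are relative to the library total. The paper reports lower RNA yields under quizartinib, more so in heavy polysomes than in input. A level close to that of vehicle is thus not an equal amount of message per culture. Fewer cells with the ATP5MC1 message and less of it in each cell cannot be told apart.

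**Figure D3:**
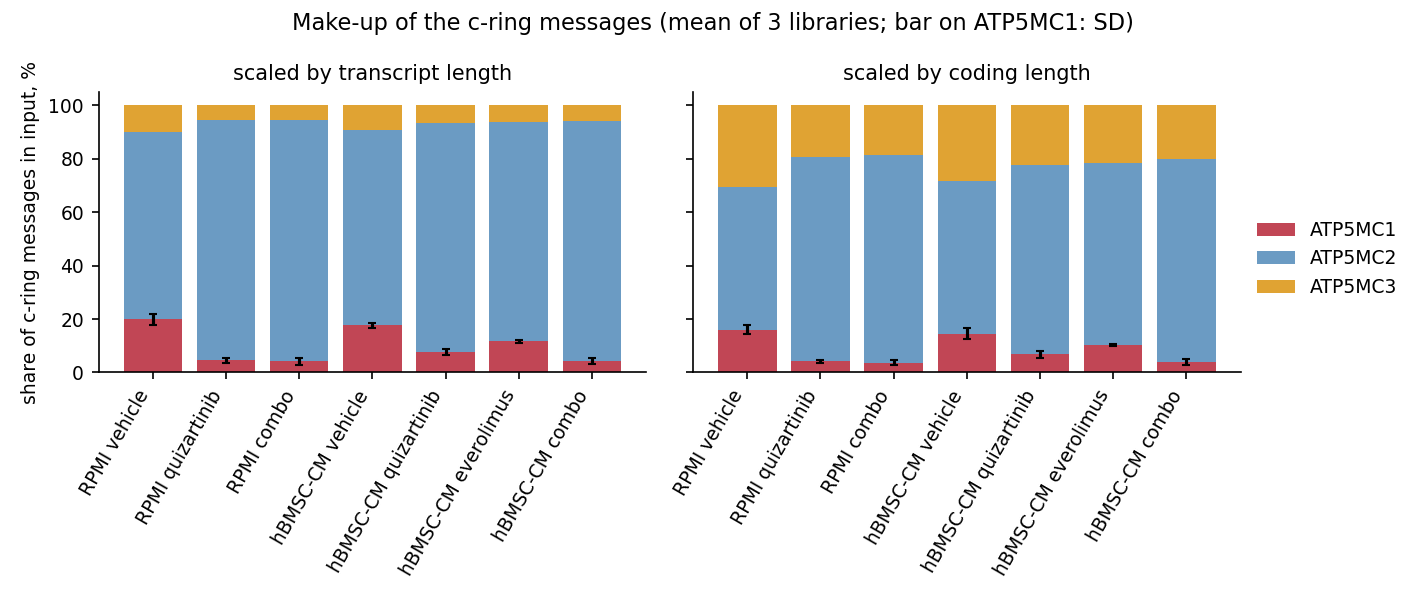
Share of c-ring messages in input held by each paralog (%, mean of 3 libraries, with the SD on ATP5MC1) in the 7 conditions, scaled by transcript length on the left and by coding length on the right. The ATP5MC1 band is 19.8% in RPMI vehicle and 4.58% in RPMI quizartinib by transcript length, and ATP5MC2 fills most of the bar under either scaling.

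In heavy polysomes the c-ring messages were among the enriched ones. In RPMI vehicle, polysome CPM was above input CPM by 1.35 ± 0.32 on the log2 scale for ATP5MC1 (adjusted p = 0.000471), 1.37 ± 0.26 for ATP5MC2 (adjusted p = 3.82e-05) and 1.59 ± 0.28 for ATP5MC3 (adjusted p = 9.34e-06). ATP5F1B (1.70), ATP5F1D (1.40), ATP5PO (0.62) and ATP5F1C (0.51) were also called higher. ATP5F1E was called lower, at −0.93 ± 0.27 (adjusted p = 0.00278), and its 51 codons are the shortest coding sequence of the 10. ATP5F1A (0.40, adjusted p = 0.125) and ATP5PB (−0.10, adjusted p = 0.643) were not called. That made 8 of 10, 7 higher and 1 lower, where 65.4% of all genes were called, 31.5% higher and 33.9% lower. When libraries were scaled by size only, ATP5F1C turned to −0.04 and ATP5F1A to −0.18, and the call of ATP5PO was lost with each replicate left out. The median was 0.98 over the 10 genes and −0.06 over all genes.

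Some members kept close values in the other 6 conditions and others did not. There 57.9% (RPMI quizartinib), 59.3% (RPMI combo), 63.6% (hBMSC-CM vehicle), 58.7% (hBMSC-CM quizartinib), 58.6% (hBMSC-CM everolimus) and 63% (hBMSC-CM combo) of all genes were called in either direction. ATP5MC3 was called higher in all 7, with fitted values of 1.19 to 1.67, and ATP5F1B in all 7, with 0.91 to 1.96. ATP5F1E was called lower in all 7, with −1.78 to −0.93. ATP5MC1 was called higher in all but RPMI combo, where it had 0.66 (adjusted p = 0.0757). ATP5MC2 was not called in RPMI quizartinib (0.20, adjusted p = 0.526), RPMI combo (0.05, adjusted p = 0.876) and hBMSC-CM combo (0.44, adjusted p = 0.14). ATP5F1D ran from 0.32 to 1.40 and was not called in RPMI quizartinib and RPMI combo. ATP5PO ran from −0.31 to 0.62 and was called in RPMI vehicle only. ATP5F1C was called higher in all 7, with 0.51 to 0.88, and ATP5F1A in 4 of the 7, with 0.22 to 0.68 over all. ATP5PB was called in none and lay between −0.14 and 0.17.

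For quizartinib against vehicle in RPMI, ATP5MC2 had the largest difference of the 10 in polysome relative to input. Polysome minus input, as log2 CPM of libraries with the same condition and number, was 1.11, 1.72 and 1.26 for ATP5MC2 under vehicle and 0.02, 0.45 and 0.15 under quizartinib. The groups did not overlap, and the fitted difference of −1.17 ± 0.37 missed the threshold (adjusted p = 0.102). With input and polysome of the same condition and number as a block it was −1.16 (adjusted p = 0.0464). ATP5F1D was at 1.30, 1.71 and 1.18 under vehicle and 0.41, 0.76 and 0.05 under quizartinib, without overlap (−1.0 ± 0.33, adjusted p = 0.128). ATP5F1E was at −1.04, −1.12 and −0.69 under vehicle and −1.66, −1.98 and −1.74 under quizartinib, also without overlap (−0.84 ± 0.37, adjusted p = 0.262). ATP5PO was at 0.44, 1.02 and 0.36 under vehicle and 0.08, 0.28 and −0.34 under quizartinib (−0.64 ± 0.38, adjusted p = 0.43). These 4 of 10 had no overlap, where 19.8% of all genes had none.

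ATP5MC1 and ATP5MC3, the paralogs with lower input, differed less in this measure. ATP5MC1 was at 0.99, 1.54 and 1.41 under RPMI vehicle and 0.57, 1.10 and 0.87 under RPMI quizartinib, with overlap (−0.49 ± 0.45), and ATP5MC3 had −0.31 ± 0.38. The remaining 4 members, ATP5F1A, ATP5F1B, ATP5F1C and ATP5PB, had 0.09 to 0.26, with ATP5PB at −0.06 under relative log expression scaling. No member was called in the main fit, where 1.55% of all genes were. Of the 10 genes, 3 had an unadjusted p under 0.05, where 15.6% of all genes did, limma voom called 0, and DESeq2 called 2, ATP5MC2 and ATP5F1D. With the replicate number as a block in the edgeR fit, ATP5MC2 (adjusted p = 0.00909) and ATP5F1E (adjusted p = 0.0417) were called lower. In that fit 3.79% of all genes were called. The median in the main fit was −0.40 over the 10 genes and 0.15 over all genes.

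**Figure D4:**
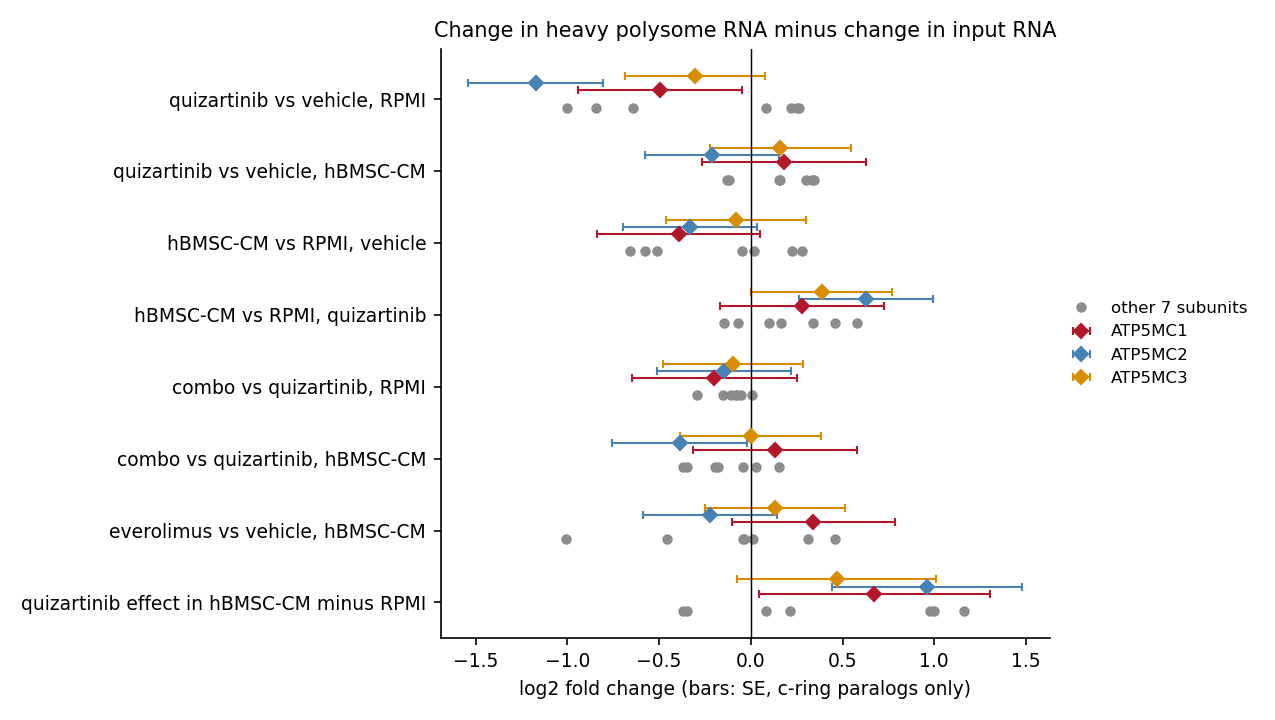
Fitted log2 changes of polysome relative to input for the 10 genes in each comparison, with the SE drawn for the c-ring paralogs. For quizartinib against vehicle in RPMI, ATP5MC2 is at −1.17 and ATP5F1D at −1.0, while in hBMSC-CM the 10 genes lie between −0.21 and 0.35.

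In hBMSC-CM the polysome values relative to input lay closer together. ATP5MC2 was at 0.93, 1.62 and 0.67 under vehicle and 0.51, 1.22 and 0.72 under quizartinib, with overlap (−0.21 ± 0.37, or −0.51 without the culture of vehicle replicate 3). The 10 genes ran from −0.21 to 0.35, and ATP5F1C, at 0.35, was the 1 without overlap, where 5.36% of all genes had none. Without the culture of hBMSC-CM vehicle replicate 3, ATP5F1D turned from 0.16 to −0.28 and ATP5PO from 0.33 to −0.23. ATP5F1E turned from 0.15 to −0.15 and ATP5MC1 from 0.18 to −0.16. The quizartinib effect on this measure in hBMSC-CM minus that in RPMI was 1.16 ± 0.47 for ATP5F1D (95% interval 0.24 to 2.08, adjusted p = 0.954), 1.00 ± 0.53 for ATP5F1E, 0.98 ± 0.53 for ATP5PO and 0.96 ± 0.52 for ATP5MC2. Without hBMSC-CM vehicle replicate 3 these were 0.79, 0.77, 0.49 and 0.73. ATP5MC1 had 0.67 ± 0.63 and ATP5MC3 0.47 ± 0.54. No member and 0% of all genes were called for this difference (1 member and 4.82% of all genes had an unadjusted p under 0.05, and limma voom called 0 genes and DESeq2 13, no member among them, with 5 members left without an adjusted p by DESeq2).

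No gene of the 10 was called in the other comparisons of polysome relative to input either, where 0% of all genes were, and none had an unadjusted p under 0.05 or was called by limma voom or DESeq2 (which gave 5 members no adjusted p between media under quizartinib). Between media under quizartinib, ATP5MC2 (0.63 ± 0.37) and ATP5F1E (0.34 ± 0.37) had no overlap, 2 of 10 where 7.23% of all genes had none. Between media under vehicle, ATP5F1E (−0.66 ± 0.37) had none, 1 of 10 where 6.24% of all genes did. Combo against quizartinib gave −0.29 to 0.00 in RPMI and −0.39 to 0.16 in hBMSC-CM, all 10 with overlap in both media, where 3.49% and 4.81% of all genes had none. Everolimus alone gave −1.01 ± 0.55 for ATP5F1B and −0.46 ± 0.32 for ATP5F1A against vehicle, both without overlap, where 18.1% of all genes had none.

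The polysome level of ATP5F1B varied with the replicate number as well as with the condition. In the 3 everolimus libraries it was 913, 895 and 842 CPM. In replicates 1 and 2 of the other 6 conditions, 12 libraries, it ran from 1407 to 2965 CPM with a median of 1914, and in replicate 3 of those conditions, 6 libraries, from 757 to 997 CPM with a median of 905. The everolimus libraries lay among or near the replicates numbered 3. Input levels were 453 to 488 CPM under everolimus, 409 to 769 CPM in replicates 1 and 2 and 273 to 603 CPM in replicate 3 of the other conditions. In input, mitochondrially encoded genes took 7.05 to 10.2% of counts in replicate 1 of the other 6 conditions and 3.17 to 5.35% in replicates 2 and 3. They took 3.67 to 4.25% in the everolimus libraries, which thus did not follow the numbers of the other conditions. Whether the numbers mark a batch is not given in the labels. For everolimus against vehicle, the drug and a difference between sets of libraries cannot be told apart.

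**Figure D5:**
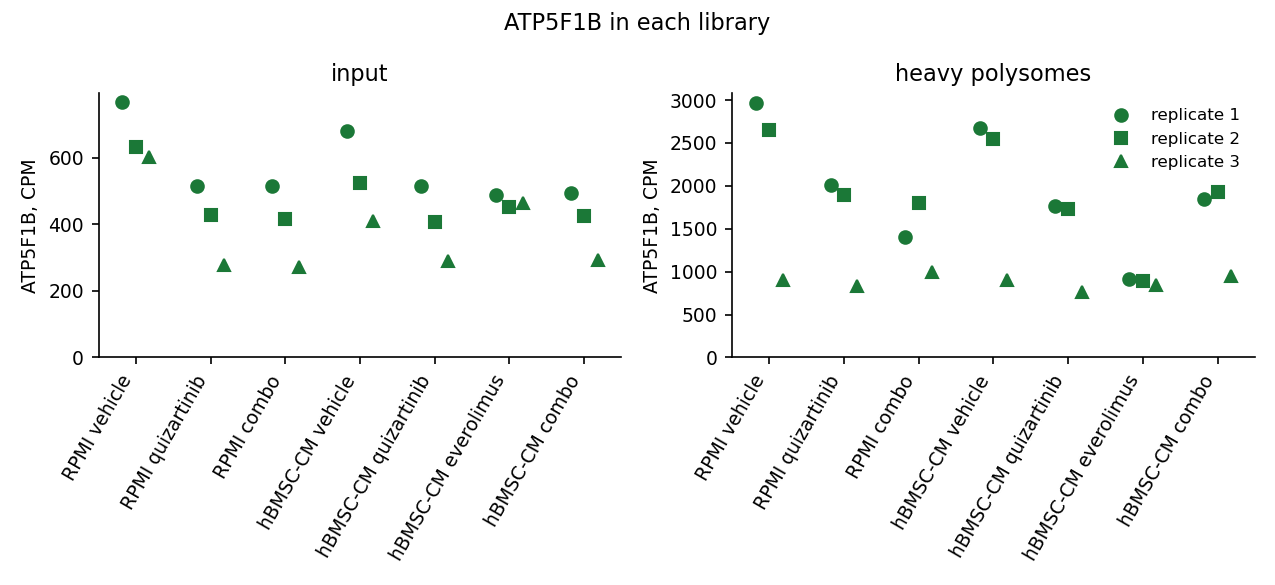
ATP5F1B level (CPM, axis from 0) in each of the 42 libraries, input on the left and heavy polysomes on the right, marked by replicate number. In heavy polysomes replicate 3 and all 3 everolimus libraries lie between 757 and 997 CPM and the other 12 libraries between 1407 and 2965 CPM.

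Further genes of the complex were tested alongside the members. Of 20 further genes of the complex, its assembly and its carriers, 19 were tested, and 4 were called lower and 0 higher in RPMI input under quizartinib, where 18% and 16.6% of all genes were (4 also by limma voom and by DESeq2). Without RPMI vehicle replicate 1 none was called, without RPMI quizartinib replicate 2 the count was 1 and without its replicate 3 it was 2. The 4 were ATP5MD, a small membrane subunit (−0.87, adjusted p = 0.0059), TMEM70, an assembly factor for the c-ring (−0.69, adjusted p = 0.019), and the ADP/ATP carriers SLC25A4 (−1.02, adjusted p = 0.0137) and SLC25A5 (−0.54, adjusted p = 0.0161). SLC25A4 was low throughout, at 6.73 to 8.31 CPM under vehicle and 2.52 to 4.87 CPM under quizartinib. In hBMSC-CM input 1 of the 19 was called, ATP5MD (−1.11, adjusted p = 0.00275), where 12.3% of all genes were. The 8 other nuclear subunits had a median of −0.29 in RPMI, with 6 of 8 negative, and −0.60 in hBMSC-CM, with 8 of 8 negative.

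In heavy polysomes of RPMI vehicle, 31.5% of all genes were called higher and 33.9% lower than input. Of the same 19 genes, 5 were called higher and 5 lower. The lower ones included MT-ATP6 (−4.52) and MT-ATP8 (−3.82), which are encoded by mitochondrial DNA and translated on mitochondrial ribosomes. The higher ones included the carriers SLC25A3, SLC25A5 and SLC25A6, of which SLC25A3 brings in phosphate. For quizartinib against vehicle in RPMI, 1.55% of all genes were called in polysome relative to input. Of the 19, 1 was called, SLC25A6 (−1.14 ± 0.26, adjusted p = 0.0145), a call lost without RPMI quizartinib replicate 1 and without each RPMI vehicle replicate. Its polysome level was 3392, 2993 and 3148 CPM under vehicle and 1753, 1775 and 1585 CPM under quizartinib, without overlap, while its input level of 1321 to 1595 CPM and 1471 to 2166 CPM overlapped.

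Across the 21 input libraries the members fell into separate patterns. These correlations of log2 CPM are descriptions over libraries that share conditions, replicate numbers and depth. Outside everolimus, ATP5MC2 was highest and ATP5MC3 lowest in the library numbered 3 of each condition. ATP5F1B had a median of 292 CPM in the libraries numbered 3 and 516 CPM in those numbered 1 and 2. The part of the replicate number in these patterns was not tested. ATP5MC2, ATP5F1D, ATP5F1E and ATP5PO correlated with each other at 0.79 to 0.90, and ATP5MC3, ATP5F1A, ATP5F1B and ATP5PB at 0.81 to 0.95. ATP5MC1 was closest to ATP5MC3 (0.82) and ATP5F1D (0.73), and far from ATP5MC2 (0.30). ATP5MC2 and ATP5MC3 were at −0.03. Among 8629 genes with at least 10 CPM on average, those with patterns most like that of ATP5MC1 were NUDC (0.988), PHB (0.987), EMG1, MRPS25 and RPUSD2 (0.984). For ATP5MC2 they were RPL35 (0.963), AC007969.1 (0.955) and BCL7C (0.949), and for ATP5MC3 they were TRAP1 (0.973), SERBP1 (0.973) and DDX1 (0.970).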

How the data were processed

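Per the labels and the study's methods, poly(A) libraries of input and heavy polysome RNA were sequenced paired-end. The authors trimmed reads with BBDuk, aligned them with STAR 2.6.0a to hg38 and deposited 1 table of raw gene counts on Ensembl identifiers. The study used limma. The use of strand in counting is not given in the sources used here. All 42 columns were used, and no 2 libraries were identical.

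Of 58884 rows, 12939 genes with a mean of at least 1 count and 1 CPM (99.8% of counts) were tested with edgeR 4.0.16 (R 4.3.3). The quasi-likelihood test was fitted to the counts of all 42 libraries as 14 group means, with TMM scaling, robust dispersions and Benjamini-Hochberg adjustment over all genes at 0.05. This differs from the study's limma model because the counts were deposited unnormalised, and limma voom (limma 3.58.1) and DESeq2 1.42.0 were alternatives. CPM values are scaled by TMM, and log2 CPM uses a prior count of 2. "Polysome relative to input" is the difference of polysome and input contrasts in the same fit. Errors are SE for fitted values and SD for libraries. "No overlap" means that every library of one group lay above every library of the other. The script was checked on simulated counts with known changes.

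All 10 members are named. Library values are given for the c-ring paralogs and for the other member with the largest change in a comparison, with those without overlap added in polysome relative to input in RPMI. Genes of like pattern were the 5 (ATP5MC1) or 3 (ATP5MC2, ATP5MC3) with the highest Pearson correlation of log2 CPM. The members and lists were chosen with earlier results of these data known. Lengths, positions and sequences came from GENCODE 44 on GRCh38, the build the study used.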

Additional observations from a re-analysis of the deposited data

Results flagged for a closer look

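ATP5F1E, the epsilon subunit of the central stalk, differed in the sign of its medium effect between vehicle and quizartinib in polysome relative to input. The log2 value of hBMSC-CM relative to RPMI was −0.66 ± 0.37 (SE) under vehicle and 0.34 ± 0.37 under quizartinib, and the cultures of the media did not overlap in either case. Polysome minus input was −1.04, −1.12 and −0.69 in RPMI vehicle, with a mean of −1.51 in hBMSC-CM vehicle, and −1.79 in RPMI quizartinib, with −1.44 in hBMSC-CM quizartinib. The difference between the effects was 0.998 ± 0.53, which the edgeR interaction test did not call (adjusted p = 1.00), and it was 0.77 without the culture of hBMSC-CM vehicle replicate 3.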

How the results depend on the processing

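ATP5MC1 minus the median of the 7 subunits outside the c-ring stayed within 1 SD of its value in 152 of 152 results under another tool, scaling, filter or block and in 100 of 108 with 1 culture left out. The others ranged over −1.64 to −0.87 for quizartinib in hBMSC-CM input, −0.45 to 0.11 for medium under vehicle, 0.45 to 1.04 for medium under quizartinib, −0.80 to −0.38 for everolimus and 0.57 to 1.25 for the difference between media. The libraries responsible were hBMSC-CM vehicle replicates 1 and 3 and hBMSC-CM quizartinib replicates 1 and 3. The input changes of ATP5MC1 chose the set, so the steadiness of these differences is a description and supports nothing. Counts of members called include ATP5MC1, whose input values chose the set and whose calls support nothing, and stayed within 1.5 times in 142 of 162 such alternatives and 107 of 111 with 1 culture left out, and the cause of the changes was not tested. With only the groups compared in the fit, 5 members were called for quizartinib in RPMI input, 2 in hBMSC-CM input and 1 in RPMI polysome relative to input. The share of all genes called in that fit is not given, so these counts are not read as a result about the members. Scaling by library size only, or a mean of at least 10 CPM, gave 2 in hBMSC-CM input. No filter on low counts gave 1 for combo in hBMSC-CM input and 1 in RPMI polysome relative to input, where DESeq2 gave 2. With 1 culture left out the counts were 1 to 2 for quizartinib in hBMSC-CM input and 0 to 1 for combo in hBMSC-CM input. ATP5F1D was the added gene in hBMSC-CM (−0.86 without quizartinib replicate 3, −0.78 and −0.81 without vehicle replicates 1 and 2), and ATP5MC1 in combo (−1.25 without quizartinib replicate 1). In RPMI input ATP5F1A was called without quizartinib replicate 1 (−0.65, adjusted p = 0.0472). For polysome against input in RPMI vehicle, 6 to 7 members were called with 1 culture left out, ATP5F1C was lost without replicate 2 (0.41, adjusted p = 0.135), and the log2 change of ATP5F1C reversed to −0.043 with library size only.

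Scaling by library size moved the median of all genes by 0.23 for quizartinib in RPMI, 0.19 for everolimus, −0.15 for the difference between media and −0.12 for medium under quizartinib, all in polysome relative to input, and by −0.55 for polysome against input. Relative log expression factors moved it by −0.15 and −0.10 for quizartinib in RPMI and hBMSC-CM and by 0.14 for polysome against input. Share values moved by more than 1 SD between transcript and coding length in 17 of 21 cases.

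The labels number the replicates in every group. Same-numbered libraries of a fraction correlated in their deviations from group means at −0.24 to 0.72 (126 pairs, median 0.43, 91 over 0.1). Input and polysome of the same culture correlated at −0.04 to 0.30 (21 pairs, 15 over 0.1). In each fraction 18 of 21 libraries correlated best with their own number. The main fit did not use the numbers as a block, and several calls depend on that choice. With the number as a replicate block, members called for quizartinib were 4 in RPMI input (5 with a block within each fraction) and 3 (4) in hBMSC-CM input. Of all genes, 42.3% (48.9%) and 20.7% (29.4%) were called there. For combo in hBMSC-CM input 1 (1) was called, ATP5MC1, where 1.19% (2.94%) of all genes were. In RPMI polysome relative to input 2 (3) were called, where 3.79% (11.7%) of all genes were. With a block per culture 1 was called there, ATP5MC2, where 1.62% of all genes were. The added genes were ATP5F1A, ATP5F1B (and ATP5PB within fraction) in RPMI input, ATP5MC3, ATP5F1D (and ATP5PO) in hBMSC-CM input, and ATP5MC2, ATP5F1E (and ATP5F1D) in RPMI polysome relative to input. The block within each fraction also gave 1 for medium under quizartinib, 2 for everolimus and 1 for the difference between media, all in input. Of all genes, 17.6%, 5.22% and 6.77% were called there. The 1 was ATP5MC1 in both cases, whose values chose the set, and the 2 were ATP5MC1 and ATP5MC3. Whether the everolimus numbers match those of vehicle was not tested, so the calls for everolimus rest on an unchecked block.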
